A study of Homo sapiens with 24 samples.

Results

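KRAB zinc finger proteins (KZFPs) are DNA-binding repressors, many of which contact transposable elements through their zinc finger arrays and recruit the corepressor KAP1 through the KRAB domain. In vertebrate DNA, CpG dinucleotides are lost over time because methylated cytosine mutates to thymine, and stretches that have kept their CpGs, the CpG islands, lie mostly at the starts of genes. Some CpG-rich stretches lie elsewhere, in coding exons, at the borders of developmental genes or inside repeated sequences that carried a CpG-rich promoter or were inserted recently. The peaks described here are those that a KZFP had on such CpG-rich DNA away from any annotated transcript start.

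A CpG-rich distal peak was a peak with a MACS score above 80 in the list of a KZFP, at least 200 bp long, with a GC content of at least 55% and an observed/expected CpG ratio of at least 0.6 over its hg19 sequence. Its midpoint had to lie more than 2500 bp from every transcript start of GENCODE release 44 (lifted to hg19), and the peak more than 1 Mb from chromosome ends and from runs of at least 50 kb without sequence. The score rises with the significance the peak caller gave the peak, as 10 times the negative log10 of its p-value. Of 31717 peaks above 80 in the lists of 21 KZFPs, 141 met the rule, and they came from 11 KZFPs and fell into 129 separate regions on 21 chromosomes. Each KZFP is represented by 1 library of the human embryonic kidney line HEK 293T, transduced with a doxycycline-inducible plasmid for that KZFP with 3 HA tags at its C-terminus, selected with 1 μg/ml of puromycin for 7 days and induced with 1 μg/ml of doxycycline, so that the proteins were overexpressed on top of whatever the cells make themselves. Chromatin was fixed in 1% formaldehyde for 10 min and precipitated with an antibody against HA. ChIP-exo, a form of ChIP that narrows each fragment with an exonuclease to where the protein is bound, was used for 15 KZFPs (ZFP28, ZKSCAN4, ZKSCAN7, ZNF34, ZNF160, ZNF195, ZNF251, ZNF416, ZNF446, ZNF546, ZNF578, ZNF724P, ZNF729, ZNF763 and ZNF850), and ChIP-seq for 6 (ZKSCAN8, ZNF20, ZNF213, ZNF256, ZNF597 and ZNF746) and for a library named 293Tctrl. There are no replicates, so differences between KZFPs have no replicate check, and the 95% intervals given below (exact Clopper-Pearson) cover counting error over peaks only. The lists hold no read numbers, so the depth behind a peak is unknown, and a longer list can reflect a deeper library or more binding. The 293Tctrl list held 4 peaks above 80. None of them met the limits on length, distance and gaps, so none could count as CpG-rich and distal. No CpG-rich distal peak of a KZFP overlapped any of its 163 deposited peaks. However, 128 of the 141 peaks came from ChIP-exo libraries, and no control list made by ChIP-exo was among those used.

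Sequences of the members that the results turn on are given first in 3 sets, all from hg19, plus strand, 5′ to 3′. The first set shows dense CpGs in introns and between genes. An intron of MYO1D, an unconventional myosin, held peaks of 4 KZFPs, and an intron of PMF1, a kinetochore component, held peaks of 3. The highest-scoring member of ZNF746 (rank 13 of its 260 peaks) lay 11551 bp from SP8, a transcription factor gene of limb development. Every CpG is in capitals.
MYO1D intron, chr17:31149560-31149799: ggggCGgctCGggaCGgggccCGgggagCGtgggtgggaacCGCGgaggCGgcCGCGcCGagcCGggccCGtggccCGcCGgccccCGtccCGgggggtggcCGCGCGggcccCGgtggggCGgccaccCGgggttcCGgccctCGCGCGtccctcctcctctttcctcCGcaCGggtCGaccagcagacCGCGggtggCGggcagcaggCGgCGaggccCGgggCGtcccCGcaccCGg
PMF1 intron, chr1:156186415-156186654: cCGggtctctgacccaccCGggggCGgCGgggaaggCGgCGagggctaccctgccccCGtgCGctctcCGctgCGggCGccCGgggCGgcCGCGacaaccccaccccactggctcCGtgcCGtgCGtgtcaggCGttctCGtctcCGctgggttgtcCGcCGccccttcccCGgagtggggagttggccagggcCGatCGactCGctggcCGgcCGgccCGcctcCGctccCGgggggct
ZNF746 highest-scoring, chr7:20837936-20838175: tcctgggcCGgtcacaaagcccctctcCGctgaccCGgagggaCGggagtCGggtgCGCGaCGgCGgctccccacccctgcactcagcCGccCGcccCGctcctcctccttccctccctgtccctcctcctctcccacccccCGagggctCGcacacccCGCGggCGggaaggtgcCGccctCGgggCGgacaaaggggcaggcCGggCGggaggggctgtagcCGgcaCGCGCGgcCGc

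The second set shows CpG-rich DNA inside coding exons, by 180 bases around the midpoint of the highest-scoring examples, in CCDC102A (a coiled-coil protein) and in TCHH (trichohyalin, a structural protein of the hair follicle, encoded by repeated units). CpGs are again in capitals.
CCDC102A coding exon, chr16:57562672-57562851: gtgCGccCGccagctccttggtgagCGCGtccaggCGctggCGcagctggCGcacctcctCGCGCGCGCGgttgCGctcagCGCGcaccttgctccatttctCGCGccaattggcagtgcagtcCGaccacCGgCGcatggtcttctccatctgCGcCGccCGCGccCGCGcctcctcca
TCHH coding exon, chr1:152082402-152082581: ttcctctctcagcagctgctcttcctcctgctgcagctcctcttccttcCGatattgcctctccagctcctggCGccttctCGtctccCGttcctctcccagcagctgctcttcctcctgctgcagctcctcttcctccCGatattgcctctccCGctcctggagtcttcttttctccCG

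The third is a single stretch of chromosome 2, in an intron of the long non-coding RNA LINC00486, shown with CpGs in capitals, of which the 120 bases hold 0.
LINC00486 intron, chr2:33141453-33141572: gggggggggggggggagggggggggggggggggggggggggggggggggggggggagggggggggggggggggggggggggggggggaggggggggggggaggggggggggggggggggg

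The 141 peaks had a median length of 518 bp (236 to 6875 bp), a median GC content of 64.6% (55 to 96.3%), a median CpG ratio of 0.764 (0.603 to 1.18) and a median of 40 CpGs (7 to 479). CpG-rich peaks near transcript starts, of which there were 1652, had a median GC content of 67.3%, a median ratio of 0.847 and a median length of 539 bp. CpG-poor distal peaks, which met the limits on length, distance and gaps but not on composition, numbered 22390, with a median GC content of 37.4% and a median ratio of 0.171. These values follow from the rule and are given as a description. The 5 peaks at LINC00486 met the rule without being rich in CpG. They held 403 to 410 Gs but 8 to 16 Cs each, and 7 to 11 CpGs gave a ratio of 0.753 to 0.944. Each of these peaks also holds 68 to 73 bases without sequence in hg19, which GC content and ratio leave out, and no other member holds any. All other members had a GC content of up to 79.1%.

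**Figure D1:**
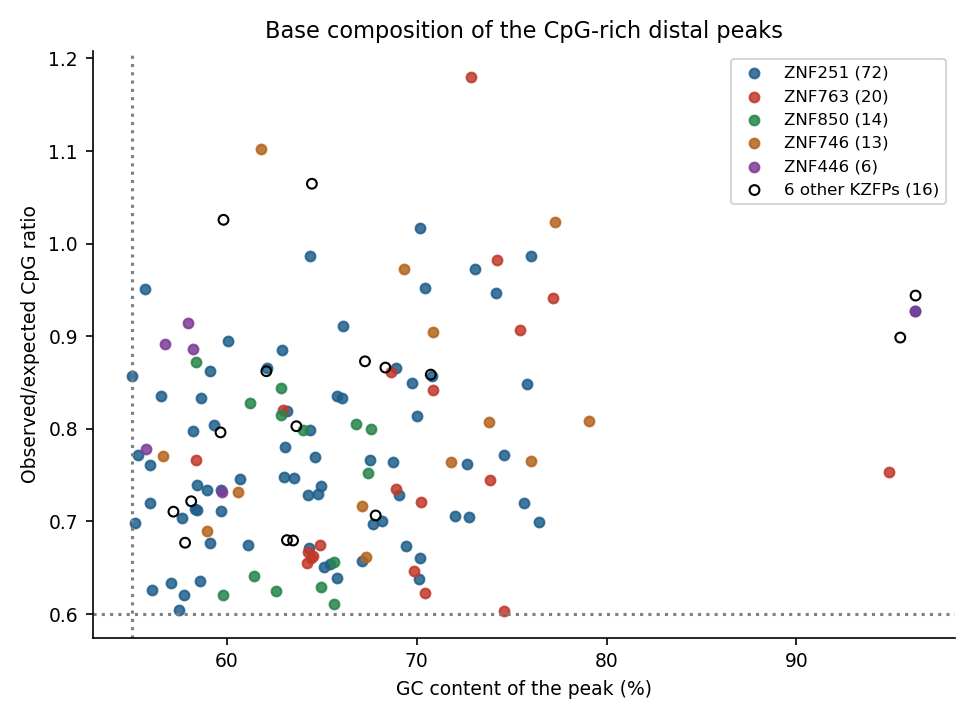
GC content (x axis, percent) and observed/expected CpG ratio (y axis) of each of the 141 CpG-rich distal peaks, 1 point per peak, with dotted lines at the limits of 55% and 0.6. The 5 points on the far right, with GC contents of 94.9 to 96.3%, are the peaks of ZKSCAN7, ZNF251, ZNF446, ZNF546 and ZNF763 at LINC00486, 2 of which have the same composition.

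At the limits on score, composition and distance from a transcript start, the peaks just inside and just outside were close together. The lowest score inside was 80.29 (ZNF34) and the highest outside 79.99 (ZNF763), the lowest GC content inside 55% (ZNF251) and the highest outside 54.97% (ZNF578), and the lowest CpG ratio inside 0.603 (ZNF763) and the highest outside 0.59997 (ZNF251). The nearest midpoint to a transcript start was 2515 bp away inside the rule and 2495 bp outside it. The other limits had wider steps, with lengths of 236 bp inside and 198 bp outside. Distances from a gap or end were 1051955 bp inside and 970047 bp outside. The median distance to the nearest transcript start was 10639 bp, and 67 of the 141 midpoints were within 10 kb of one. The same share of other distal peaks is not given here, so this is a description and not a trait of the members.

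ZNF251 held 72 of the 141 peaks (51.1%), from a list of 20974 peaks. ZNF763 held 20 of 224, ZNF850 14 of 464, ZNF746 13 of 260, ZNF446 6 of 97 and ZKSCAN7 5 of 337. ZNF546 (24 peaks), ZNF34 (78 peaks) and ZNF578 (854 peaks) held 3 each, and ZFP28 (1098 peaks) and ZNF195 (110 peaks) 1 each. The 10 KZFPs with no such peak were ZKSCAN4, ZKSCAN8, ZNF20, ZNF160, ZNF213, ZNF256, ZNF416, ZNF597, ZNF724P and ZNF729, of which ZNF213 had no peak above 80 at all. As a share of the whole list the order was different. It was 12.5% for ZNF546 (95% interval 2.66 to 32.4%), 8.93% for ZNF763 (5.54 to 13.5%), 6.19% for ZNF446 (2.3 to 13.0%), 5.00% for ZNF746 (2.69 to 8.40%), 3.02% for ZNF850 (1.66 to 5.01%) and 0.343% for ZNF251 (0.269 to 0.432%). The intervals of ZNF546, ZNF763, ZNF446 and ZNF746 overlapped one another, and all lay above that of ZNF251. These shares and intervals count copied sequences as separate peaks and include the peaks at LINC00486. ZNF34 had 3.85% (0.8 to 10.8%) and ZKSCAN7 1.48% (0.483 to 3.43%). The upper end of this order depended on the settings, since ZNF546, with 24 peaks, fell to 2.08% over all deposited peaks, ZNF763 rose to 16.1% without the limit on gaps and ends, and ZNF446 rose to 14.4% with a minimum length of 100 bp and to 16.1% above a score of 150.

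Among distal peaks alone, the share that was CpG-rich ranged from 0 to 61.9% between KZFPs. In hg19, cut into windows of 200 bp and put through the same limits, 0.528% of distal windows were CpG-rich. ZNF251 had 72 of 14664 distal peaks on CpG-rich DNA, or 0.491% (0.384 to 0.618%), and ZNF578 3 of 587, or 0.511% (0.106 to 1.49%), and both intervals take in the genome's share. So do those of ZFP28, with 1 of 810 (0.123%, 0.00313 to 0.686%), and ZNF195, with 1 of 46 (2.17%, 0.055 to 11.5%). ZNF160, the second longest list, had 0 of 5261, with an upper exact limit of 0.0701%, below the genome's share. The share was 61.9% for ZNF746 (13 of 21, 38.4 to 81.9%), 60% for ZNF546 (3 of 5, 14.7 to 94.7%), 22.2% for ZNF763 (20 of 90, 14.1 to 32.2%), 16.7% for ZNF446 (6 of 36, 6.37 to 32.8%), 7.69% for ZNF34 (3 of 39, 1.62 to 20.9%), 4.76% for ZNF850 (14 of 294, 2.63 to 7.86%) and 3.42% for ZKSCAN7 (5 of 146, 1.12 to 7.81%), all with lower bounds above the genome's share. The 3 CpG-rich distal peaks of ZNF34 had scores of only 80.29 to 82.6, and 0 of its 27 peaks above a score of 100 were CpG-rich and distal. The intervals count each peak as separate, though 7 members of ZNF850 and 4 of ZNF763 are near-identical copies, described below. The shares of ZNF251, ZNF763, ZNF446, ZNF546 and ZKSCAN7 also include the peak at LINC00486, which met the rule without being rich in CpG. No shares without copies or that region were computed. Peaks are longer than the windows, and their length differs between lists. When the 200 bp around each midpoint were read in place of the whole peak, the share was 0.668% for ZNF251 (0.543 to 0.814%) and 4.35% for ZNF195 (0.531 to 14.8%), both now with a lower bound just above the genome's share. It was 28.9% for ZNF763, 25% for ZNF446 and 57.1% for ZNF746, and ZNF160 remained at 0 of 5261.

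**Figure D2:**
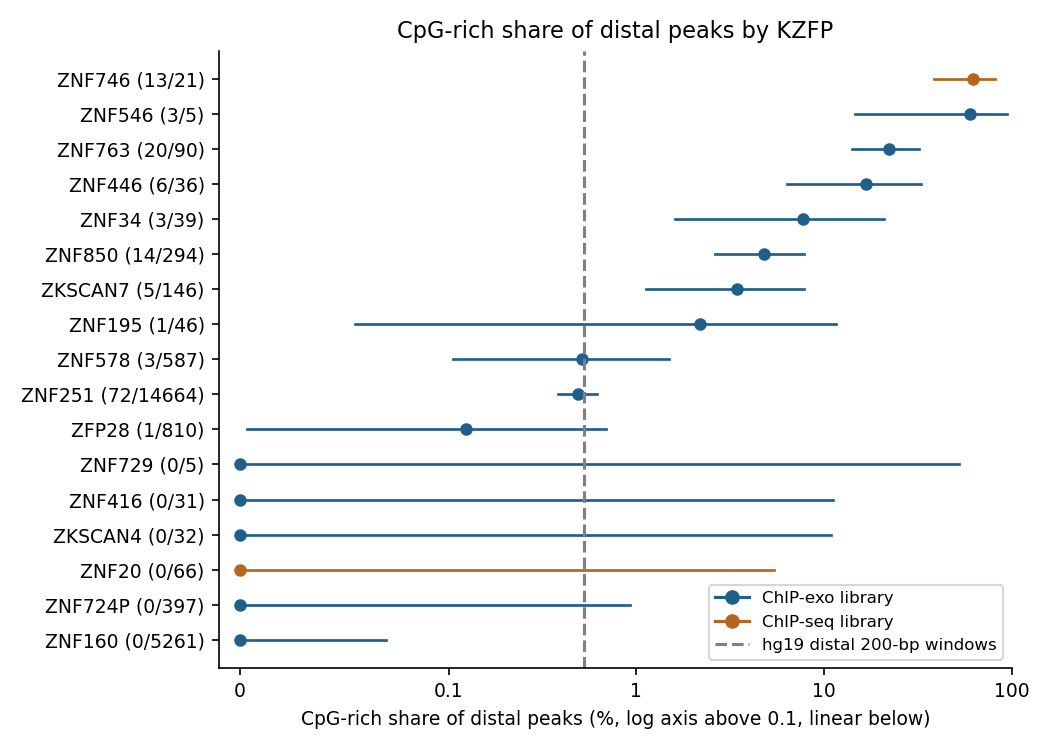
Share of distal peaks above 80 that were CpG-rich (x axis, percent, logarithmic above 0.1 and linear below) in each KZFP with at least 5 distal peaks, with the numbers beside each name. Points are shares and lines exact 95% intervals, and the dashed line is the share of 0.528% among distal 200-bp windows of hg19. ZNF746, ZNF546, ZNF763, ZNF446, ZNF34, ZNF850 and ZKSCAN7 lie to the right of the line, the intervals of ZNF251, ZNF578, ZFP28 and ZNF195 cross it, and ZNF160 lies to its left.

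The KZFPs also differed in how their CpG-rich peaks were divided between transcript starts and elsewhere. ZNF746 had 212 CpG-rich peaks near starts beside its 13 distal ones, so that 5.78% (3.11 to 9.68%) of its CpG-rich peaks were distal, and ZNF251 had 1276 beside 72, or 5.34% (4.2 to 6.68%). The distal part was 29.0% (18.7 to 41.2%) for ZNF763, 25.5% (14.7 to 39.0%) for ZNF850 and 66.7% (29.9 to 92.5%) for ZNF446, whose intervals lie above those of ZNF251 and ZNF746. CpG-rich peaks away from starts but within 1 Mb of gaps or chromosome ends, 49 over all KZFPs, took no part in these shares. Without that limit ZNF763 had 36 distal ones in place of 20. In hg19, 31.2% of CpG-rich 200-bp windows were distal, but there the total also counts windows near gaps and ends. The hg19 share is therefore not the same measure. The shares of the KZFPs also count copied sequences as separate peaks and include the LINC00486 peaks of ZNF251, ZNF763 and ZNF446.

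The CpG-rich distal peaks of the KZFPs differed in how often their sequence recurs in the genome. Matches were counted for these peaks only, so whether the other peaks of the same lists recur as often is not known. Of the 141 peaks, 92 matched 1 to 5 places of hg19 (the peak itself included) over at least 100 bp at 80% identity or more, and 84 of these matched 1. A further 9 matched 6 to 200 places, 18 matched more than 200 and up to 10000, and 17 more than 10000, while the 5 at LINC00486 gave no match because simple sequence was masked. All 13 peaks of ZNF746 matched 1 to 3 places, the 3 of ZNF578 and the 1 of ZFP28 a single place, and 58 of the 72 of ZNF251 a single place. For ZNF850, 12 of 14 matched 663 to 1974 places, 1 (in an intron of EBPL on chromosome 13) 105372 and 1 a single place. For ZNF446, the 5 peaks outside LINC00486 matched between 555008 and 662952 places each. ZNF763 was spread over all of these kinds, with 8 peaks at 1 or 2 places, 5 at 30 to 112, 4 at 1919 to 3832 and 2 at over 10000. A match needs only 100 bp of a peak, so a long peak with a repeat at its edge also counts. The MYO1D region, for example, matched 59472 places with the 792-bp peak of ZNF251 and 2 places with the 524-bp peak of ZNF746, and the PMF1 region matched 39184 places with the peak of ZNF546, 39709 with that of ZNF763 and 312024 with that of ZKSCAN7.

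**Figure D3:**
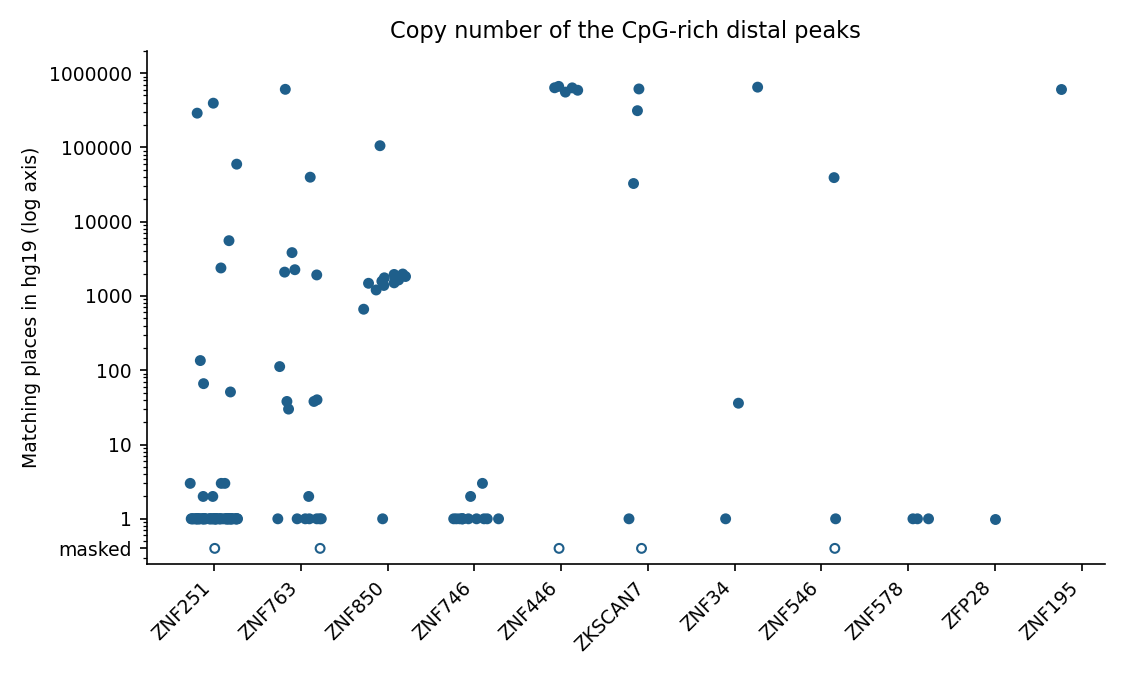
Number of places in hg19 that match a CpG-rich distal peak over at least 100 bp at 80% identity or more (y axis, logarithmic), 1 point per peak, by KZFP (x axis). Open points are the 5 peaks at LINC00486, whose sequence was masked. ZNF746, ZNF578 and ZFP28 peaks sit at 1 to 3 places, most ZNF850 peaks between 663 and 1974, and 5 ZNF446 peaks between 555008 and 662952.

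The ZNF850 peaks were largely copies of 1 sequence. Of its 14 peaks, 13 matched another member elsewhere over at least 100 bp. A group of 7 lay between positions 69006545 and 70586350 of chromosome 5, all intergenic, within a span of 1.58 Mb, and were 93.6 to 100% identical in the 21 pairs they form. Their scores were 997.84, 541.93, 900.13, 788.75, 351.41, 1587.86 and 899.4 from the first to the last along the chromosome, which were ranks 3, 11, 5, 7, 29, 2 and 6 of the 464 peaks of ZNF850. The nearest protein-coding genes of those at the ends were GTF2H2C at 115742 bp and BDP1, a subunit of the RNA polymerase III initiation factor, at 165416 bp. The 6 other matching ZNF850 peaks, on chromosomes 2, 3, 5, 6, 11 and 13, were 70.2 to 83.7% identical to a ZNF850 member over their longest match and had scores of 86.85 to 241.83. The 7 near-identical peaks all had higher scores than these 6. Reads that fall in copies with 100% identity cannot be placed on 1 copy, and how such reads were treated in the ChIP-exo libraries is not given in the sources used here, so the 7 peaks may not be 7 separate sites. Their part in the scores was not tested.

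Across KZFPs, 41 of the 141 peaks matched another member that did not overlap them. The largest group joined by such matches had 31 members from 7 KZFPs (13 of ZNF850, 5 each of ZNF446 and ZNF763, 4 of ZNF251, 2 of ZKSCAN7 and 1 each of ZNF34 and ZNF195), in which each member need match only 1 other. Of the peaks of ZNF446 in it, the highest had a score of 327.94 (rank 4 of 97) near ME3 on chromosome 11, 1 in an intron of ADAMTS9-AS2 had 307.07 (rank 6), 1 in an intron of an unnamed long non-coding RNA on chromosome 6 had 277.79 (rank 11), and 1 near ANXA7 had 93.68 (rank 76). A second group held 5 long peaks of chromosome 19, 4 of ZNF763 (lengths of 4123, 5248, 6746 and 6875 bp, scores of 92.59 to 110.03) and 1 of ZNF34 (3725 bp, score 80.29), in introns of long non-coding RNAs. These matched one another at 97.3 to 99.7% identity over 2994 to 5988 bp, and each matched 30 to 40 places in hg19. With the 2103-bp TCHH peak of ZNF251, they were the 6 members over 1 kb.

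Tandem repetition was otherwise rare. The best identity of a peak with itself, shifted by 6 to 150 bases, was 35.8% at the median (bases without sequence were left out), and 8 peaks reached 50%. These were the 5 at LINC00486 (89.1 to 91.8%, at shifts of 16 to 50), the TCHH exon (57.9% at a shift of 90), a ZNF578 peak on chromosome 22 (chr22:47774731-47775305, 63.8% at a shift of 15) and a ZKSCAN7 peak on the X chromosome (51.0% at a shift of 142).

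More of the peaks were shared between KZFPs than of other distal peaks. Of the 141, 19 (13.5%, 8.31 to 20.2%) overlapped a peak above 80 of another KZFP by at least 1 bp, against 2.59% of all 31717 peaks, 1.16% of CpG-poor distal peaks and 4.96% of CpG-rich peaks near starts. These 19 lay in 7 regions, and overlap is mutual, so that a region with 5 members counts 5 times; by region, 7 of 129 (5.43%) were shared. Within libraries, the difference between CpG-rich and CpG-poor distal peaks was 7.80 percentage points for ZNF251, 5.00 for ZNF763 and 2.14 for ZNF850, the 3 KZFPs with at least 10 of each. The mean of 4.98 points was higher in 3 of 3 libraries, but an exact two-sided sign-flip permutation test over 3 libraries cannot go below p = 0.25, which is the value it gave (adjusted 0.25 over 2 tests), and the libraries are not independent in this measure. Without peaks that touch the LINC00486 region, the difference for ZNF763 was 0.526 points and the mean 3.06 (exact permutation p = 0.25). With ZNF251 left out, ZNF850 turned to −2.14 points, and the mean of 2.86 was higher in 1 of 2 libraries (exact permutation p = 1).

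The region at LINC00486 was in the lists of 11 KZFPs above 80, with members from 5. Its peak had a score of 2822.29 for ZNF763 (rank 1 of 224), 1919.17 for ZKSCAN7 (rank 19 of 337), 1189.89 for ZNF251 (rank 799 of 20974), 736.44 for ZNF546 (rank 1 of 24) and 300.52 for ZNF446 (rank 7 of 97). The peaks of the other 6 were wider, with GC contents of 84.0 to 88.3% and CpG ratios of 0.148 to 0.184, and so missed the rule by their ratio. Their scores were 3100.0 for ZNF34 (rank 1 of 78), 2596.1 for ZNF195 (rank 1 of 110), 297.27 for ZNF724P, 268.59 for ZNF416, 115.43 for ZFP28 and 83.94 for ZNF160 (rank 6172 of 6377). It was thus the highest peak of 4 ChIP-exo lists and among the lowest of another. All 11 were ChIP-exo libraries, and of the ChIP-seq lists only ZKSCAN8 had a peak there, with a score of 57.04.

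The region in the MYO1D intron (chr17:31149316-31150150) was shared by ZNF763 (score 403.09, rank 4 of 224), ZNF251 (231.85, rank 8516 of 20974), ZKSCAN7 (163.63, rank 129 of 337) and ZNF746 (108.83, rank 149 of 260). ZNF546 also had a peak there, with a score of 79.09, just under the threshold. The members held 80 or 81 CpGs each, at ratios of 0.983 to 1.06, and 1 of them came from a ChIP-seq library. The PMF1 region (chr1:156186043-156186896) was shared by ZNF763 (391.97, rank 5 of 224), ZKSCAN7 (145.2, rank 153 of 337) and ZNF546 (97.38, rank 21 of 24). In ZNF763, then, the 3 regions shared most widely ranked 1, 4 and 5 of the list, while its other 17 members had scores of 80.4 to 115.8. Of the remaining shared regions, 3 joined members of 2 KZFPs, in an exon of TSTD3 (ZNF251 537.09, ZNF34 81.77), near the carboxylesterase gene CES4A (ZNF251 281.14, ZNF746 108.33) and among the chromosome 5 copies (ZNF850 788.75, ZNF251 83.88). In the last, in an intron of LINC02861, a ZNF251 member (101.11) met a CpG-poor ZKSCAN4 peak (131.57).

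Scores of CpG-rich distal peaks were compared with those of CpG-poor distal peaks of the same list, since scores depend on the depth of a library. The ZNF251 members ranged from 83.54 to 3100.0 around a median of 195.7, against 187.7 for its CpG-poor distal peaks, and 7 of the 72 were in the top 10% of its list. For ZNF763 the median was 92.47 against 91.76, and for ZNF746 108.3 against 106.6. ZNF850 stood apart, with a median of 296.6 (81.35 to 1587.86) against 120.3, and 7 of its 14 members were in the top 10% of the list, all of them chromosome 5 copies. ZNF446 had a median of 289.2 (93.68 to 327.94) against 110.1, with 3 of 6 in the top 10%. The difference of the median log2 scores was 0.0605 for ZNF251, 0.0112 for ZNF763 and 1.28 for ZNF850, with a mean of 0.449, higher in 3 of 3 libraries (exact two-sided sign-flip permutation test over 3 libraries, p = 0.25, the smallest it can give, adjusted 0.25). With a minimum of 5 members, ZNF446 and ZKSCAN7 entered too, and the mean was 0.613 (exact permutation p = 0.0625, again the smallest possible for 5 libraries). With a minimum of 20 members, which leaves ZNF251 and ZNF763, the mean was 0.0359 (exact permutation p = 0.5, the smallest possible for 2).

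**Figure D4:**
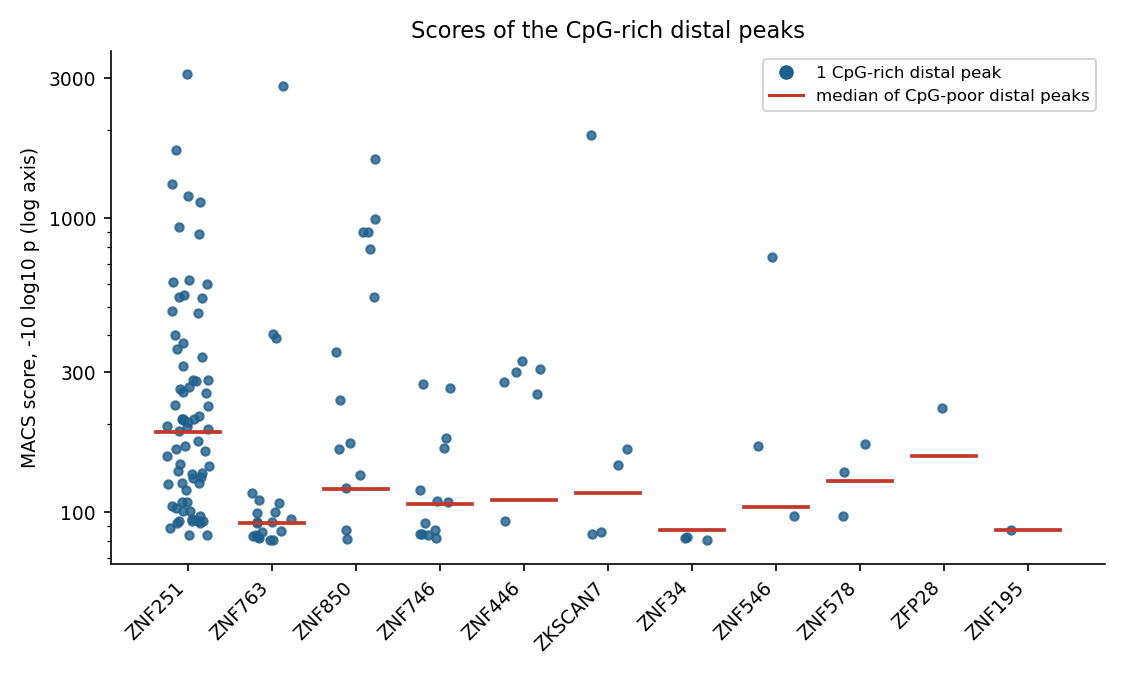
MACS scores (y axis, logarithmic) of the CpG-rich distal peaks of each KZFP (x axis), 1 blue point per peak, with a red line at the median score of the CpG-poor distal peaks of the same list. The points of ZNF850 reach from 81.35 to 1587.86 with most above the red line at 120.3, and those of ZNF251 and ZNF763 lie on both sides of theirs.

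By the place of their midpoint, 71 of the 141 peaks (50.4%) were intergenic, 50 (35.5%) intronic, 17 (12.1%, 7.18 to 18.6%) in a coding exon, 2 in a non-coding exon and 1 in an untranslated exon. Among all 22531 distal peaks of at least 200 bp, 0.408% were in a coding exon, and among the CpG-poor ones 0.335%. CpG-rich DNA is itself concentrated in exons, and 6.81% of the CpG-rich distal windows of hg19 were in a coding exon against 0.679% of all distal windows. The lower bound for the peaks, 7.18%, was close to that value. All 17 coding exon peaks belonged to ZNF251 (13 of 72, 18.1%) and ZNF763 (4 of 20, 20.0%), and ZNF746 and ZNF850 had 0 of 13 and 0 of 14. The upper exact limits of ZNF746 and ZNF850, 24.7% and 23.2%, take in the shares of ZNF251 and ZNF763.

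The 5 highest were all of ZNF251, in CCDC102A (chr16:57562400-57563124, score 1306.38, rank 656 of 20974, 103 CpGs), TCHH (chr1:152081441-152083543, 1136.35, rank 890, 119 CpGs), BICDL2, a BICD family-like cargo adaptor (886.6), KLHL31, a kelch-like protein of muscle (539.38), and UNC13A, which primes synaptic vesicles (267.1). The other 8 of ZNF251 were in DLL3, CYP2F1, SPTBN4, PACSIN1, TMEM143, SORBS2, EBF3 and ZNF703, with scores from 83.54 to 229.5. The 4 of ZNF763 were in PKLR, the pyruvate kinase of liver and red cells (91.82), ZNF787 (85.62), NXPH4 (83.38) and CHST13 (82.65), all in the lower part of its list. All of these except CYP2F1 (2 places) and TCHH (3 places) matched a single place in hg19.

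The 5 highest-scoring members of ZNF251, at ranks 9 to 890 of its list, were of different kinds. The first (chr12:120868105-120868934, score 3100.0, rank 9 of 20974) lay 7374 bp from COX6A1, a subunit of cytochrome c oxidase, and matched 393720 places. The next (chr6:28781806-28782484, 1708.55) was intergenic, 88634 bp from TRIM27, and matched 3 places. CCDC102A, LINC00486 and TCHH followed. In the other lists, the highest member was in an intron of HIVEP2, a zinc finger transcription factor, for ZFP28 (226.15, rank 353 of 1098), on chromosome 12 for ZNF578 (171.22), on chromosome 9 for ZNF34 (82.6, 647095 places) and on the X chromosome, 59872 bp from FGF13, for ZNF195 (87.33, 606362 places). Pairs of members of 1 KZFP at 1 gene were seen at DLL3, a ligand of the Notch pathway, at HAND1, a heart transcription factor, and at RPN1, an oligosaccharyltransferase subunit, for ZNF251, and in BCOR, a corepressor of BCL6, for ZNF746 (scores of 164.83 and 84.08).

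Few members lay at the listed gene groups. In or within 10 kb of 37 imprinted genes (of 39 listed) there were 0 of 141 (upper exact limit 2.58%), against 0.126% of all peaks. At the clustered protocadherins there were also 0, against 0.0189%. At HOX genes there was 1, a ZNF251 peak in HOXB7 (93.03), or 0.709% against 0.0725%. Among 168 developmental regulators named by family there was 1, a ZNF251 peak 275 bp from DLX2 (93.19), or 0.709% against 0.467%. Zinc finger genes had 3 (2.13% against 1.85%), namely ZNF213, ZNF703 and ZNF787, and no member was inside the gene of a KZFP studied here. Counts of 0 to 3 carry little weight either way. Other developmental genes, picked after their values were seen, had members near them. No share of all peaks near such genes was computed, so these genes are examples only and show no preference. For ZNF251 they were HAND1 (1023 and 4543 bp), HES1 (1989 bp), TFAP2A (2177 bp) and LBX1 (8942 bp). For ZKSCAN7 it was MSX2 (3270 bp) and for ZNF746 SP8 (11551 bp, beyond the 10 kb used for the lists). Distances are to the nearest edge of the gene.

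By chromosome, 15 members (10.6%) were on chromosome 19, against 1.3% of CpG-poor distal peaks and 6.36% of CpG-rich peaks near starts, and 15 on chromosome 5, of which 8 belong to the cluster of copies. Chromosome 17 had 10 (7.09% against 2.18% and 5.51%), but in 7 separate regions, since its members in the MYO1D intron overlap. Of the 15 on chromosome 19, 5 were the long peaks that match one another at 97.3 to 99.7% identity. The shares by chromosome count overlapping and copied peaks as separate. They were not computed without such peaks, so they show no preference for a chromosome.

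Words of factors that bind CpG-rich promoters were searched on both strands in the central 200 bp. The SP/KLF word GGGGCGGGG was in 11 of 141 (7.80%), against 0.130% of CpG-poor distal peaks, 15.4% of CpG-rich peaks near starts and 1.08% of all peaks of at least 200 bp. The ETS word CCGGAAG was in 11 (7.80%, against 0.335%, 7.08% and 0.866%), 5 of them of ZNF850. Since 13 of the 14 ZNF850 members are copies of related sequence, these 5 need not be separate occurrences. AGGGGGC, a part of the CTCF site, was in 15 (10.6%, against 0.826%, 14.1% and 1.83%), and the E-box CACGTG in 3 (2.13%, against 1.55%, 5.87% and 1.93%). The CRE word TGACGTCA was in 1, and the words GCGCATGCG (NRF1), AAGATGGCG (YY1) and TCTCGCGAG (ZBTB33) were in 0, against 1.69%, 0.969% and 0.605% of CpG-rich peaks near starts. Short GC-rich words are more frequent wherever composition is high, and a match is not a bound site. The 8-base words whose share in members most exceeded that in CpG-poor distal peaks were of the same nature. For ZNF251 the first was CCCCGCCC, in 13 of 72 (18.1%), against 0.212% of CpG-poor distal peaks and 22.8% of CpG-rich peaks near starts. For ZNF763 it was GCGGCCGC, in 6 of 20, against 0 of 70 and 5 of 49.

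The sequence words of a KZFP's other peaks were then read in its CpG-rich distal peaks. For each KZFP with at least 10 members, other peaks of its list were read in their central 200 bp and in a window 1000 bp away. The 8-base word was taken whose share in the first most exceeded that in the second, so that the members had no part in the choice. CpG-poor distal peaks and CpG-rich peaks near starts are such other peaks, so the choice itself can raise their shares but not those of the members. Differences between them and the members are therefore not on an equal footing and are given as a description. The other peaks read were 18640 for ZNF251, 387 for ZNF850, 227 for ZNF746 and 132 for ZNF763, which is not all of each list. In ZNF251, AAGTGAAA was in 44.5% of CpG-poor distal peaks and 2.16% of windows 1000 bp from its other peaks, and in 0 of 72 members (upper exact limit 4.99%), also when whole peaks were read. Its CpG-rich peaks near starts held it at 0.470%. The word is rich in A and T, so that base composition and the place of the peak cannot be told apart here. The third word, CACTTAGC, was in 25.6% of CpG-poor distal peaks and in 1 of 72 members. In ZNF763, CCCCCCAC, a word with high GC content, was in 21 of 70 CpG-poor distal peaks (30.0%), 1 of 49 CpG-rich peaks near starts and 0 of 20 members (upper exact limit 16.8%), though 4 of 20 held it somewhere in the whole peak. In ZNF746, CTCCCTCC was in 42.9% of CpG-rich peaks near starts, in 6 of 8 CpG-poor distal peaks and in 3 of 13 members (23.1%, 5.04 to 53.8%), with overlapping intervals, and 5 of 13 members held it somewhere in the whole peak. ZNF850 was the exception. CCCCTCTC was in 12 of its 14 members (85.7%, 57.2 to 98.2%), in 66.4% of its CpG-poor distal peaks (60.6 to 71.9%) and in 19.5% of its CpG-rich peaks near starts (8.82 to 34.9%), against 0.775% of windows 1000 bp away. Since 13 of the 14 are copies of related sequence, they do not count as 14 separate sites.

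**Figure D5:**
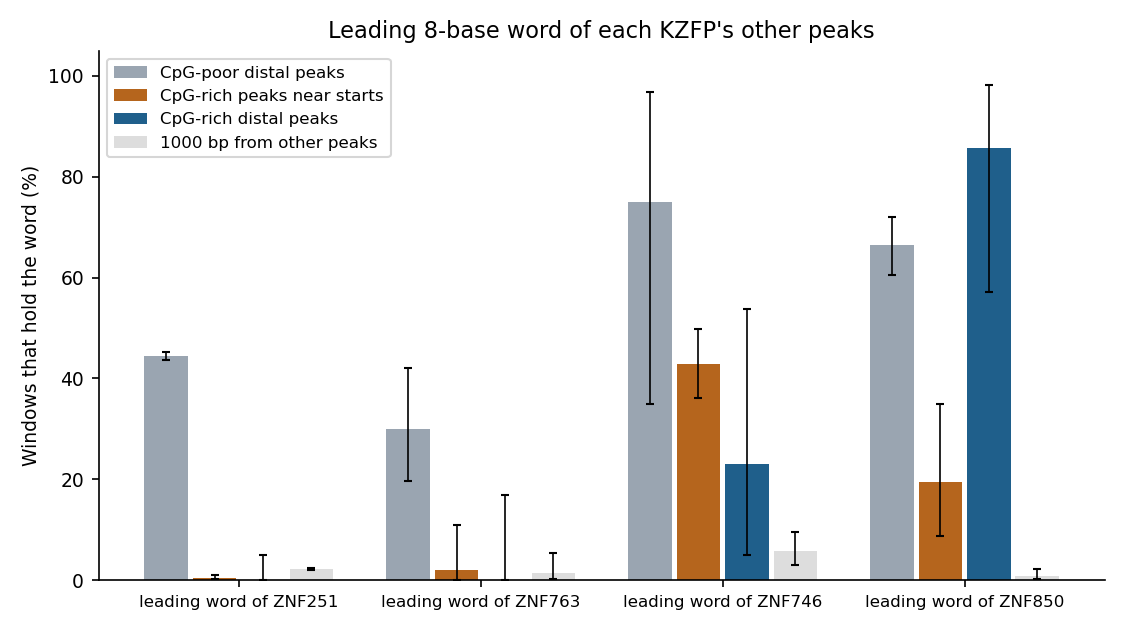
Share of 200-bp windows (y axis, percent) that hold the leading 8-base word of the other peaks of ZNF251, ZNF763, ZNF746 and ZNF850 (x axis) in CpG-poor distal peaks, CpG-rich peaks near starts, CpG-rich distal peaks and windows 1000 bp away, with exact 95% intervals. The blue bars, for CpG-rich distal peaks, are at 0 for ZNF251 and ZNF763, at 23.1% for ZNF746 and at 85.7% for ZNF850.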

How the data were processed

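Reads had been aligned to hg19 and peaks called library by library, and the authors deposited for each peak its position and a MACS score, 10 times the negative log10 of its p-value, with a lowest deposited score of 50. Bowtie2 2.2.1 and MACS 1.4 are named in the submitters' processing notes. ChIP-exo libraries were called with all duplicates kept and ChIP-seq libraries with reads above a mapping quality limit against a total input. The paper's methods state that ChIP-exo peaks were also called with a control, as in an earlier study. Kept duplicates and the mapping quality limit can change which repeats carry peaks. ChIP-exo and ChIP-seq lists were therefore not compared by score. Peak composition was read from hg19 with pysam 0.24.0, and starts from the 254376 transcripts of GENCODE release 44. Copies were counted with blastn 2.17.0 (megablast, word size 20), merging overlapping matches. Intervals and exact permutation tests used scipy 1.17.1. The scripts were tested on simulated data. The 293Tctrl list was counted beside the others, and total inputs were not analysed here. Groups came from the labels. Members named were the highest of each KZFP, the 5 highest of ZNF251, the 5 highest over coding exons and regions shared by at least 3 KZFPs, and others were named after their values were seen. The members, gene lists and words were chosen with earlier results of these data known. Alternatives changed the score, distance, composition, length, gap and overlap limits. Some sequences and 1 named gene are not reported here.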

Additional observations from a re-analysis of the deposited data

Results flagged for a closer look

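Peaks with a score of 50 to 80 took no part in the comparisons above, and 488 of 21765 distal peaks in that range (2.24%) were CpG-rich by the same limits. In the 293Tctrl list, 0 of 82 such peaks were, with an upper exact 95% limit of 4.40%. The lists of ZNF763 and ZNF746 had shares whose intervals lay above that limit. For ZNF763 it was 9.58% (187 of 1953, 8.31 to 11.0%), and for ZNF746 9.47% (9 of 95, 4.42 to 17.2%). ZNF746 is above the limit by a narrow margin. ZNF34 had 4.92% (62 of 1259), and ZNF160 and ZFP28 0.133% and 0.172%. 293Tctrl was made by ChIP-seq and ZNF763 by ChIP-exo, so assay and KZFP cannot be told apart in that comparison.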

How the results depend on the processing

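The number of CpG-rich distal peaks, 141 here, was 629 over all deposited peaks, 72 above a score of 150, 270 with starts of protein-coding transcripts only, 58 at GC 0.60 and a ratio of 0.75, and 92 among members with at most 5 matching places (chosen after seeing the data); the other settings gave 99 to 209. The share of ZNF251, 51.1% here, was 23.5% over all deposited peaks, 61.6% above 100, 61.1% above 150, 59.6% with protein-coding starts and 68.5% among members with at most 5 matching places. Of 132 shares of single KZFPs under these settings, 109 stayed within the interval of the main value. Intervals over few members are wide, so this count says little of stability. The share of the ZNF251 list, 0.343% (0.269 to 0.432%), was 0.124% at GC 0.60 and a ratio of 0.75. It was 0.768% with protein-coding starts and 0.468% over all deposited peaks, all outside its interval. The share of members that overlap another KZFP, 13.5%, was 22% with all deposited peaks of the others, 5.43% with each merged region counted once, 6.52% among members with at most 5 matching places and 10.3% without LINC00486, all but the first of these chosen after seeing the data. The share over any exon, 14.2%, was 21.7% among members with at most 5 matching places. The means of both sign-flip tests stayed above 0 under every alternative run, but in the sharing test ZNF850 turned to −2.14 points without ZNF251, and with at most 5 libraries no test could reach 0.05, which says nothing of stability. The score difference fell from 0.449 to 0.0359 with a minimum of 20 members, and the sharing difference from 4.98 to 3.06 points without the LINC00486 region. The cause of these changes was not tested, beyond fewer or more peaks entering by construction. No replicate could be left out, since each KZFP has 1 library. No paired analysis was possible because no KZFP has replicates to pair by number with those of another, and the 2 sign-flip tests pair peak classes within a library.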
